A study of Mus musculus with 12 samples.

Results

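The 10 genes described here encode chains of the fibrillar collagens (*Col1a1*, *Col1a2*, *Col3a1*, *Col5a1*, *Col5a2*, *Col5a3* and *Col11a1*) and of the fibril-associated collagens (*Col12a1*, *Col14a1* and *Col16a1*). They were taken by gene symbol from a table of 18996 genes, by a rule that uses no measured value though it was set with earlier results of these data known, and all 10 were in the table and passed the filter on low counts. RNA from paraspinal tissue of 12 mice was sequenced, with operated mice taken 7 days after surgery. The methods describe BALB/c mice of 5 to 7 weeks for the study as a whole, and the labels of these 12 mice state no strain, age or sex. No operation mice (n = 4) gave paraspinal soft tissue, SHAM mice (n = 4) gave soft and scar tissue after removal of paraspinal soft tissue with the laminae left in place, and Laminectomy mice (n = 4) gave soft and scar tissue after excision of the T12 to L2 laminae. No transgene or drug is given for any of these mice. The unoperated tissue therefore differs from both others in its kind as well as in the operation. In such bulk samples, more cells that make a collagen and more collagen RNA per cell cannot be told apart.

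Fibrillar collagens are the rope-like proteins that give scar, tendon, skin and bone their tensile strength. Type I collagen, built from a pair of alpha1 chains and a single alpha2 chain, is the main component of mature scar, and type III collagen, built from *Col3a1* chains alone, is abundant in early granulation tissue. Types V and XI co-assemble with the major fibrils and limit their width, and types XII, XIV and XVI sit on or beside the fibril surface. In a healing wound, fibroblasts are the main source of these chains.

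The genes lie on chromosomes 1 to 15 of GRCm38. *Col1a1* (identifier 12842) is at chr11:94936224-94953042 and *Col1a2* (12843) at chr6:4505618-4541543, both on the plus strand. *Col3a1* (12825, plus strand, chr1:45311538-45349706) and *Col5a2* (12832, minus strand, chr1:45374331-45503282) lie tail to tail on chromosome 1, with 24624 bases between their facing ends. *Col5a1* (12831) is at chr2:27886381-28039510, *Col5a3* (53867) at chr9:20770050-20815117, *Col11a1* (12814) at chr3:114030479-114220756, *Col12a1* (12816) at chr9:79598987-79721141, *Col14a1* (12818) at chr15:55307644-55520803 and *Col16a1* (107581) at chr4:130047817-130099277. The fibrillar chains share an exon design that the choice of genes did not use. Coding exons of exactly 54 bases, a length that encodes whole Gly-X-Y repeats of the triple helix, made up between 41.2% (21 of 51, *Col1a1*) and 47.1% (24 of 51, *Col3a1*) of the coding exons of the 7 fibrillar chains. The share was 6.15% (4 of 65) in *Col12a1*, 8.51% (4 of 47) in *Col14a1* and 17.4% (12 of 69) in *Col16a1*. Other fibril-associated chains ranged from 11.1% (*Col20a1*) to 44.4% (*Col22a1*), so a low share is not common to that family.

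Promoter windows from RefSeq (GRCm38; 250 bases before the start and 50 from it on) were held for 6 of the 10 genes. The 3 windows below are shown because the genes differ in what follows: *Col1a2* and *Col3a1* rose in both operated groups against No operation mice, and *Col11a1* rose in Laminectomy mice. Capitals mark 4 motifs searched on both strands. The CCAAT box was sought as CCAAT or its reverse complement ATTGG. The GC box was sought as GGGCGG or, on the other strand, as CCGCCC. The SMAD motif, a short stretch that SMAD proteins can bind, was CAGAC or GTCTG when read on the other strand. The TATA box was sought as TATAAA or as its complement TTTATA. No capital stretch belongs to more than 1 of these motifs.
Col1a2, chr6:4505368-4505667, plus strand: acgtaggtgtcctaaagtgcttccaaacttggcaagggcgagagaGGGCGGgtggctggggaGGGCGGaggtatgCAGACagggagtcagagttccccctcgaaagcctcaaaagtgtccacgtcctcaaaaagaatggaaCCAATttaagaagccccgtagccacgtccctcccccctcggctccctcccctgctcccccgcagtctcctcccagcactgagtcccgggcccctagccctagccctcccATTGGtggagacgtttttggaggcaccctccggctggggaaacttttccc
Col3a1, chr1:45311288-45311587, plus strand: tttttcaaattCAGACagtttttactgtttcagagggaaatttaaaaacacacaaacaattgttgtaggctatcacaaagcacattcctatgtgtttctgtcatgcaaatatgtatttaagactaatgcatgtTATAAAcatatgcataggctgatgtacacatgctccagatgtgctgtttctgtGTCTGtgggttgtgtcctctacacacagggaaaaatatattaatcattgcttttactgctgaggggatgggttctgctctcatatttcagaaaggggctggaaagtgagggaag
Col11a1, chr3:114030290-114030589, plus strand: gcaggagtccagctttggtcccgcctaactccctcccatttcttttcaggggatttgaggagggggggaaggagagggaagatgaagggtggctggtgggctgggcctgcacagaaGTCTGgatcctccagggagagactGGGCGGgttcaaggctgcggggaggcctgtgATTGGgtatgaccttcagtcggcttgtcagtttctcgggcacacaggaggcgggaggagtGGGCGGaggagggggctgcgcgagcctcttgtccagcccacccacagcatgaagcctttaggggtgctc
The *Col1a2* window held 2 CCAAT boxes, 2 GC boxes and 1 SMAD motif, and the *Col11a1* window held 1, 2 and 1 of them. The *Col3a1* window held neither a CCAAT box nor a GC box but 2 SMAD motifs and 1 TATA box. Its GC content was 37.7%, and 6.63% of all windows in the table had a lower one, while it was 61.0% for *Col1a2* and 62.3% for *Col11a1* (median of all windows 52.7%). Of all 32851 windows, 37.4% held a CCAAT box, 35.7% a GC box, 49.6% a SMAD motif and 13.6% a TATA box by these letters, so each of these short matches is common. A match is not a binding site shown to be used.

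Libraries were of like depth, with 16802988 to 18077863 counts per mouse, and values are given as CPM (read counts scaled to the TMM-adjusted library size, in the usual unit). The tissue labels were read against marker genes. Summed over 9 skeletal muscle genes, No operation mice held 84064 to 119343 CPM, SHAM mice 2094 to 8355 CPM and Laminectomy mice 2759 to 11746 CPM, and all 9 genes fell in both operated groups. Summed over 6 macrophage genes the ranges were 572 to 1513, 3946 to 6958 and 3041 to 5163 CPM, and all 6 rose in both. The 5 tendon genes summed to 1382 to 5315, 90.9 to 548 and 455 to 829 CPM, with 4 and 2 of them falling, and the 4 adipocyte genes to 512 to 1233, 22.3 to 486 and 3.23 to 90.1 CPM, with 3 and 4 falling. Of 9 fibroblast genes, 4 rose and 2 fell in SHAM mice and 3 rose and 4 fell in Laminectomy mice, and none was at 0 in a whole group. Of 6 activated fibroblast genes, named below, 4 rose in each operated group (sums 372 to 2708, 4132 to 5719 and 5356 to 6931 CPM). The 3 smooth muscle genes summed to 1663 to 4779, 203 to 961 and 481 to 1168 CPM. In each operated group 2 of them fell, and 1 rose in Laminectomy mice. Of 4 endothelial genes, 2 fell in each. The part of these tissue differences in the collagen values was not tested.

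The summed level of the 10 genes was highest in the operated mice. It was 26806, 25290, 16186 and 6558 CPM in the 4 No operation mice, 80711, 66988, 73728 and 60304 CPM in the SHAM group and 67758, 70810, 62679 and 55180 CPM in the Laminectomy group. Each operated mouse was above every unoperated mouse, and SHAM and Laminectomy mice overlapped. *Col1a1*, *Col1a2* and *Col3a1* accounted for 80.2% to 91.1% of the sum in every mouse. What differed was the place of *Col3a1*. It took 36.1%, 8.62%, 9.37% and 16.1% of the summed CPM in the No operation group, 40.0%, 34.5%, 35.1% and 36.6% in SHAM mice and 19.9%, 21.2%, 30.6% and 31.1% in Laminectomy mice.

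**Figure D1:**
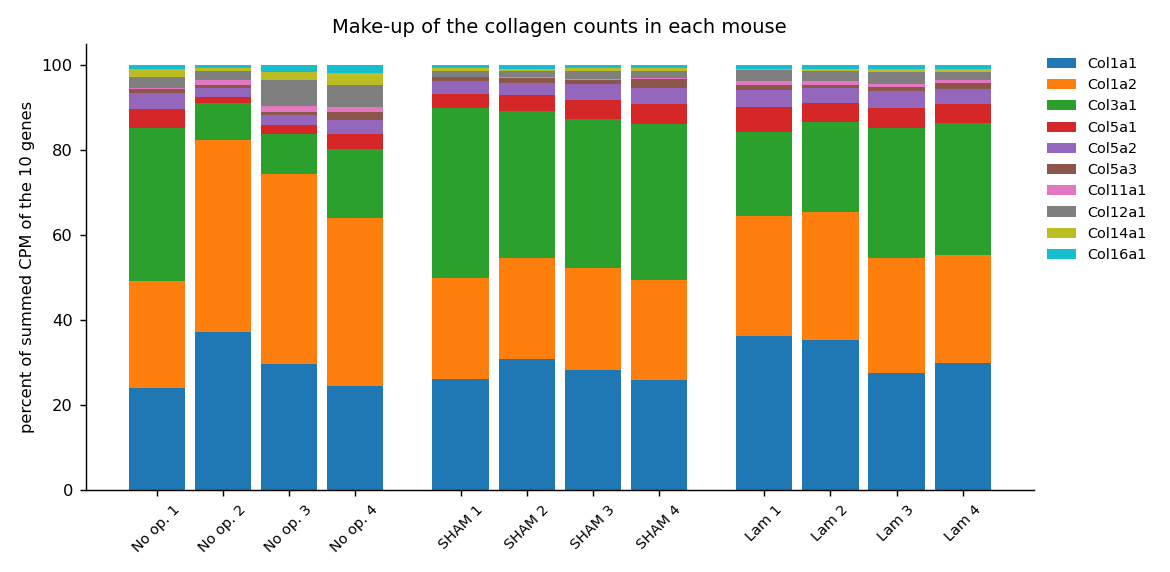
Share of the summed CPM of the 10 collagen genes (percent, y axis) taken by each gene in each of the 12 mice (x axis), not scaled for gene length. The *Col3a1* segment is 34.5% to 40.0% in SHAM mice and 19.9% to 31.1% in Laminectomy mice, and No operation mouse 1 (36.1%) stands apart from the other unoperated mice (8.62% to 16.1%).

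To rank the genes by level, CPM was divided by the kb of annotated exon. On that scale *Col1a1* had the highest mean in each group (846, 2976 and 3177 CPM per kb in No operation, SHAM and Laminectomy mice). *Col3a1* ranked below *Col1a2* in No operation mice (368 against 564 CPM per kb) and above it in SHAM mice (2633), where *Col1a2* was at 1349 CPM per kb. In Laminectomy mice *Col3a1* (1650 CPM per kb) and *Col1a2* (1436) were not separated, since *Col3a1* was higher in 2 of 4 mice. *Col5a1* and *Col5a2* followed in all 3 groups, at 64.2 and 55.4, then 337 and 243, then 369 and 255 CPM per kb. *Col11a1* was last in each group, at 12.4, 11.2 and 41.8 CPM per kb. With 4 mice a paired exact sign-flip test cannot give a p under 0.125, so that test cannot separate any pair of neighbours in these orders. In SHAM mice *Col3a1* was above *Col1a2* in 4 of 4 mice, and *Col1a1* was above *Col3a1* in 3 of 4.

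This order depends on the length used. Per kb of coding sequence, a scale added after the values were seen, *Col1a2* (1702 CPM per kb) was above *Col1a1* (1274) in No operation mice and *Col3a1* (5886) above *Col1a1* (4481) in SHAM mice. *Col5a2* and *Col5a1* changed places in No operation mice (118 and 98.9 CPM per kb) and, by a smaller margin, in SHAM mice (519 and 518). In Laminectomy mice *Col1a1* stayed first (4783 CPM per kb), and *Col14a1* (64.0) in place of *Col11a1* (98.5) was last. Comparisons of 1 gene across mice do not depend on length.

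The first comparison asked what opening the paraspinal tissue did to these genes. In SHAM mice 8 of the 10 genes rose against No operation mice, none fell, and *Col11a1* and *Col14a1* did not pass the test. A gene was called at a Benjamini-Hochberg adjusted p below 0.05 over all 14765 genes tested and an absolute log2 fold change above 0.5 in edgeR's quasi-likelihood test. By this rule 50.8% of all genes were called, 25.7% higher and 25.1% lower. The median log2 fold change was 1.55 over the 10 genes and -0.0020 over all genes. In 7 of the 10 genes every SHAM mouse was above every No operation mouse, as in 26.7% of all genes, while 54.5% of all genes did not overlap in either direction and 27.8% were lower without overlap. Scaling by library totals alone raised the median of all genes to 0.25 and the share of calls that were higher from 50.6% to 66.0%, so the rises are to be read against that shift.

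*Col1a1*, the alpha1 chain of type I collagen, was at 6428, 9386, 4790 and 1609 CPM in the No operation group and at 21166, 20632, 20757 and 15574 CPM in the SHAM group. The groups did not overlap, and the level rose 3.52-fold (log2 fold change 1.81, SE 0.432, adjusted p = 0.00345, edgeR). *Col1a2*, the alpha2 chain, was at 6728, 11463, 7242 and 2595 CPM in the No operation group and at 19064, 16002, 17687 and 14292 CPM in the SHAM group. It rose 2.39-fold (log2 fold change 1.26, SE 0.367, adjusted p = 0.0110, edgeR), again with no overlap. No operation mouse 4 was the lowest of the 12 mice for both chains.

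*Col3a1*, the chain of type III collagen, had the largest fold change of the 10 genes in SHAM mice. It was at 9680, 2180, 1517 and 1057 CPM in the No operation group and at 32270, 23143, 25910 and 22076 CPM in the SHAM group, a 7.16-fold rise (log2 fold change 2.84, SE 0.618, adjusted p = 0.00197, edgeR). No operation mouse 1 lay far above the other 3 unoperated mice, though below every operated mouse. Without that mouse the log2 fold change was 4.03. The 6 activated fibroblast genes *Fap*, *Postn*, *Cthrc1*, *Lrrc15*, *Acta2* and *Tagln* summed to 2708 CPM in it and to 372 to 578 CPM in the other 3, against 4132 to 5719 CPM in the SHAM group, and the part of this in its collagen values was not tested. An unlisted gene on the same strand, *Gm47302*, shares exon sequence with *Col3a1*.

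The type V chains, which join type I fibrils and limit their width, rose together. *Col5a1* was at 1198, 394, 358 and 232 CPM in the No operation group and at 2653, 2552, 3401 and 2826 CPM in the SHAM group (log2 fold change 2.39, SE 0.438, adjusted p = 0.000652, edgeR). Mouse 1 of the unoperated group again stood high, and without it the log2 fold change was 3.13. *Col5a2* was at 1026, 494, 384 and 223 CPM and then at 2564, 1797, 2642 and 2322 CPM, and it rose 4.39-fold (adjusted p = 0.000551, edgeR). *Col5a3*, an alternative type V chain, was at 224, 194, 130 and 122 CPM and then at 690, 854, 805 and 1227 CPM, and it rose 5.34-fold (adjusted p = 2.52e-05, edgeR). None of the 3 genes overlapped between groups. Exons of *Col5a1* overlap 2 unlisted genes on the opposite strand, *2810430I11Rik* and *Gm13372*.

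*Col11a1*, the type XI chain best known from cartilage fibrils, did not follow the others in SHAM mice. It was at 68.1, 275, 212 and 75.6 CPM in the No operation group and at 67.2, 141, 188 and 175 CPM in the SHAM group, with overlapping ranges (log2 fold change -0.15, 95% interval -1.15 to 0.86, adjusted p = 0.799, edgeR). The sign of this small value changed with the scaling and with the mice left out.

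Among the fibril-associated chains, *Col16a1* moved most. It was at 251, 187, 265 and 116 CPM in the No operation group and at 503, 532, 502 and 456 CPM in the SHAM group, a 2.43-fold rise with no overlap (adjusted p = 0.000400, edgeR). *Col12a1*, whose long non-helical arms reach out from the fibril, was at 714, 533, 973 and 341 CPM and then at 1166, 916, 1262 and 921 CPM. It rose 1.67-fold, with overlap (adjusted p = 0.0423, edgeR), and lost its call when any of 6 single mice was left out (adjusted p 0.0507 to 0.0978) and when only these groups were fitted (0.0649). The 6 mice were No operation 1, 2 and 4 and SHAM 1, 3 and 4. *Col14a1*, a surface chain of dense connective tissue, was at 490, 184, 315 and 187 CPM and then at 567, 419, 575 and 436 CPM, a 1.70-fold difference that did not pass the test (adjusted p = 0.0680, edgeR). Without No operation mouse 1, which was within the SHAM range, its log2 fold change was 1.13 (adjusted p = 0.00859, edgeR).

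**Figure D2:**
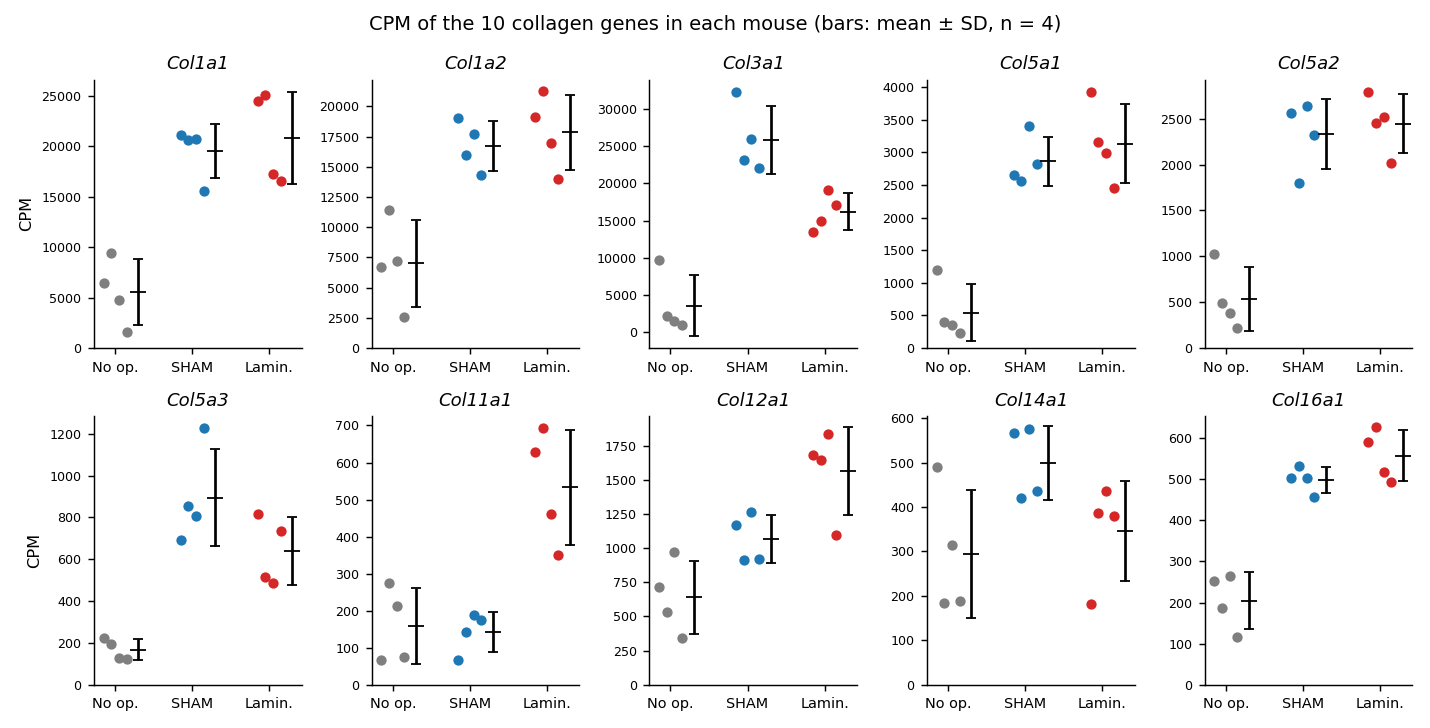
CPM (y axis) of each of the 10 genes in No operation (grey), SHAM (blue) and Laminectomy (red) mice, with 1 point per mouse in the order 1 to 4 and the mean ± SD (n = 4) beside it; the lower bar of *Col3a1* in No operation mice runs below 0. *Col11a1* is 351 to 693 CPM in the Laminectomy group and at most 275 CPM in every other mouse, while *Col3a1* is higher in SHAM than in Laminectomy mice.

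The second comparison set laminectomy against no operation. Here 9 of the 10 genes rose, none fell, and *Col14a1* alone did not pass the test. Of all genes 48.6% were called, 24.2% higher and 24.4% lower. The median log2 fold change was 1.83 over the 10 genes and 0.0093 over all genes. In 9 of the 10 every Laminectomy mouse was above every No operation mouse, as in 27% of all genes, while 56% did not overlap in either direction and 29% were lower without overlap. The No operation mice are the same as before, so the 2 sets of rises are not independent of each other. With library totals alone the median of all genes was 0.33 and the share of calls that were higher went from 49.8% to 69.9%.

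The type I chains reached levels like those of SHAM mice. *Col1a1* was at 24527, 25052, 17291 and 16529 CPM in the Laminectomy group, 3.75-fold above No operation mice (log2 fold change 1.91, SE 0.433, adjusted p = 0.00276, edgeR). *Col1a2* was at 19158, 21273, 16987 and 13959 CPM, a 2.55-fold rise (adjusted p = 0.00811, edgeR). *Col3a1* was at 13467, 15003, 19157 and 17161 CPM and rose 4.49-fold (log2 fold change 2.17, SE 0.602, adjusted p = 0.00888, edgeR). Without No operation mouse 1 its log2 fold change was 3.35.

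*Col5a1* was at 3920, 3163, 2991 and 2457 CPM in the Laminectomy group, a log2 fold change of 2.52 (adjusted p = 0.000538, edgeR) that was 3.26 without No operation mouse 1. *Col5a2* was at 2793, 2451, 2521 and 2018 CPM and rose 4.60-fold (adjusted p = 0.000517, edgeR). *Col5a3* was at 814, 515, 485 and 737 CPM and rose 3.81-fold (adjusted p = 0.000113, edgeR). All 3 type V chains were thus above every unoperated mouse in both operated groups.

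*Col11a1* was at 628, 693, 461 and 351 CPM in the Laminectomy group, 3.38-fold above No operation mice (log2 fold change 1.76, SE 0.474, adjusted p = 0.00757, edgeR). Its lowest Laminectomy mouse was above its highest unoperated mouse. *Col12a1* was at 1682, 1647, 1832 and 1095 CPM and rose 2.44-fold (adjusted p = 0.00262, edgeR). *Col16a1* was at 589, 627, 518 and 493 CPM and rose 2.72-fold (adjusted p = 0.000215, edgeR). *Col14a1* was at 181, 386, 435 and 379 CPM, overlapping the No operation mice, with a log2 fold change of 0.23 (95% interval -0.50 to 0.97, adjusted p = 0.573, edgeR).

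**Figure D3:**
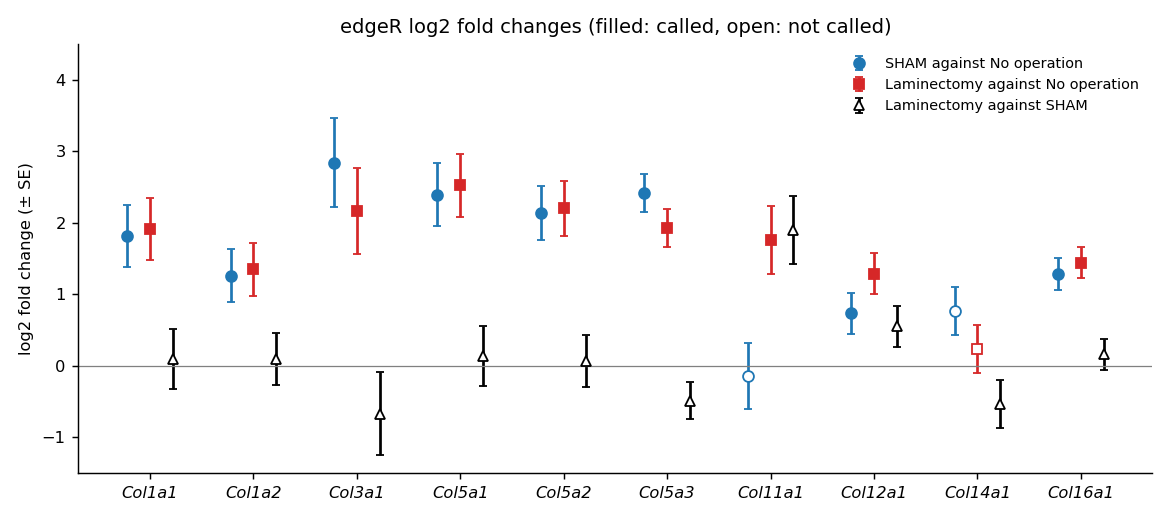
Log2 fold change ± SE (y axis, edgeR, 4 mice per group) of each gene (x axis) for SHAM against No operation (blue circles), Laminectomy against No operation (red squares) and Laminectomy against SHAM (black triangles), filled where called. All triangles are open, and that of *Col11a1* (1.90) lies farthest from 0.

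The third comparison, Laminectomy against SHAM, bears on what removal of the laminae added to the soft-tissue wound. None of the 10 genes was called, with 0% of all genes called by edgeR. *Col11a1* was the only one of the 10 at an unadjusted p below 0.05, as were 16% of all genes (2359). DESeq2 called 601 genes, *Col11a1* among the 10 collagens. The median log2 fold change of the 10 was 0.092. The intervals still allow sizeable differences: that of *Col1a1* ran from -0.82 to 1.01 (log2 fold change 0.09) and that of *Col1a2* from -0.70 to 0.88. They come from the fit over all 12 mice, so the spread of No operation mice enters them. For *Col1a1* the SD was 58.4% of the mean in No operation mice, 13.6% in SHAM and 21.9% in Laminectomy mice. For *Col1a2* it was 51.8%, 12.3% and 17.5%.

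*Col11a1* was higher in each Laminectomy mouse (351 to 693 CPM) than in any SHAM mouse (67.2 to 188 CPM), as in 5.05% of all genes, with 10.1% not overlapping in either direction. The log2 fold change was 1.90 (SE 0.476, 95% interval 0.86 to 2.94), with an adjusted p of 0.117 in edgeR and of 0.00317 in DESeq2. Markers of cartilage and bone moved with it. The 6 cartilage genes summed to 10.3 to 113 CPM in the SHAM group and 169 to 999 CPM in the Laminectomy group (13.4 to 245 CPM in the No operation group, where *Matn1* was at 0). All 5 that were tested were higher in Laminectomy than in SHAM mice at an unadjusted p below 0.05, against 6.95% of all genes, with none called. The 6 bone genes summed to 28.5 to 156 CPM in SHAM, 677 to 1873 CPM in Laminectomy and 26.6 to 553 CPM in the No operation group, and 5 of 6 were higher at an unadjusted p below 0.05. Their part in the *Col11a1* values was not tested.

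**Figure D4:**
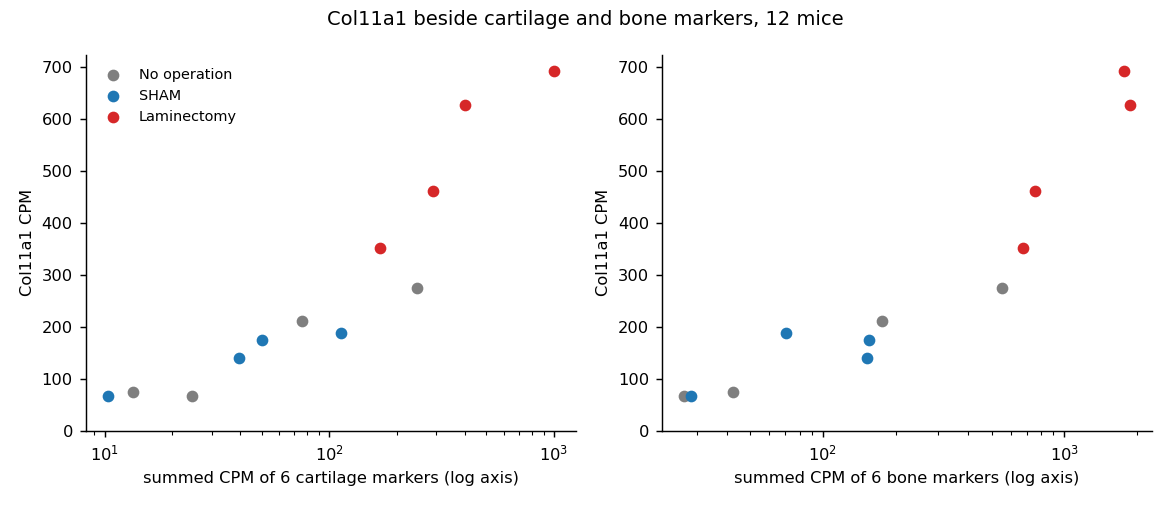
*Col11a1* CPM (y axis) against the summed CPM of 6 cartilage genes (left, log axis) and of 6 bone genes (right, log axis) in the 12 mice, coloured by group. The 4 Laminectomy mice (red) lie highest for *Col11a1* and for the bone sum, and No operation mouse 2 (275 CPM of *Col11a1*) also has the highest cartilage and bone sums outside that group.

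*Col3a1* was lower in each Laminectomy mouse (13467 to 19157 CPM) than in any SHAM mouse (22076 to 32270 CPM), as in 5.07% of all genes. The log2 fold change was -0.67 (SE 0.579, 95% interval -1.94 to 0.59, adjusted p = 0.591, edgeR), a difference within the error of the fit. Fibroblast and macrophage genes moved the same way as *Col3a1*. Of these, 7 of 9 and 4 of 6 were lower in Laminectomy than in SHAM mice at an unadjusted p below 0.05. For all genes the share was 9.03%, and none of these markers was called. The fibroblast genes summed to 3531 to 5675 CPM in SHAM and to 2010 to 3552 CPM in Laminectomy mice, and their part in the *Col3a1* values was not tested. The 6 activated fibroblast genes did not move this way: they summed to 4132 to 5719 CPM in SHAM and to 5356 to 6931 CPM in Laminectomy mice, with 1 higher and 0 lower at an unadjusted p below 0.05. For *Col5a3* the log2 fold change was -0.49 (adjusted p = 0.376), for *Col14a1* -0.53 (adjusted p = 0.461) and for *Col12a1* 0.55 (adjusted p = 0.370), each with overlap between the groups. *Col5a1* (0.13), *Col5a2* (0.07) and *Col16a1* (0.16) had log2 fold changes closer to 0.

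The ratio of type III to type I collagen message is often read as a sign of how young a scar is. The CPM ratio of *Col3a1* to *Col1a1* was 1.51, 0.232, 0.317 and 0.657 in No operation mice. It was 1.52, 1.12, 1.25 and 1.42 in SHAM mice (mean 1.33 ± 0.178, SD, n = 4) and 0.549, 0.599, 1.11 and 1.04 in Laminectomy mice (0.824 ± 0.290). Every Laminectomy mouse was below every SHAM mouse, by 0.75 on the log2 scale on average. The two-sided exact permutation test gave p = 0.0286, the smallest that 4 against 4 mice allow, and 0.0857 after adjustment over the 3 comparisons, so the difference did not pass. Against No operation mice the log2 ratio differed by 1.34 in SHAM mice (exact permutation p = 0.114, adjusted 0.171) and by 0.59 in Laminectomy mice (exact permutation p = 0.4). The SHAM range overlapped the unoperated one in No operation mouse 1 alone, and the Laminectomy range held No operation mouse 4.

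The ratio of *Col1a2* to *Col1a1*, the chains of 1 protein, was 1.05, 1.22, 1.51 and 1.61 in No operation mice. It was 0.901, 0.776, 0.852 and 0.918 in SHAM mice and 0.781, 0.849, 0.982 and 0.845 in Laminectomy mice. Every operated mouse lay below every unoperated mouse, with a mean log2 difference of -0.63 in each comparison (exact permutation p = 0.0286, adjusted 0.171 over the 24 ratios of the other 8 genes to *Col1a1*). Per kb of annotated exon *Col1a1* exceeded *Col1a2* 1.45-fold in No operation mice and 2.21-fold in both operated groups. Per kb of coding sequence the same ratios were 0.721, 1.10 and 1.10.

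In Laminectomy against SHAM mice, the ratio of *Col11a1* to *Col1a1* was higher by 1.88 and that of *Col12a1* to *Col1a1* by 0.46 on the log2 scale, neither with overlap (both exact permutation p = 0.0286, adjusted 0.171). For the fibril-associated chains, the CPM ratio of *Col12a1* to *Col14a1* was 2.06, 2.19, 2.20 and 2.11 in SHAM mice, a narrow range, and 9.29, 4.27, 4.21 and 2.89 in Laminectomy mice, against 1.46, 2.90, 3.09 and 1.82 in No operation mice. That ratio was not tested. None of the 27 ratio comparisons to *Col1a1* passed the correction within its family. With 0.0286 as the smallest exact permutation p, 1 difference alone could not pass in a family of 3 or of 24. These tests therefore cannot decide on a lone difference.

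**Figure D5:**
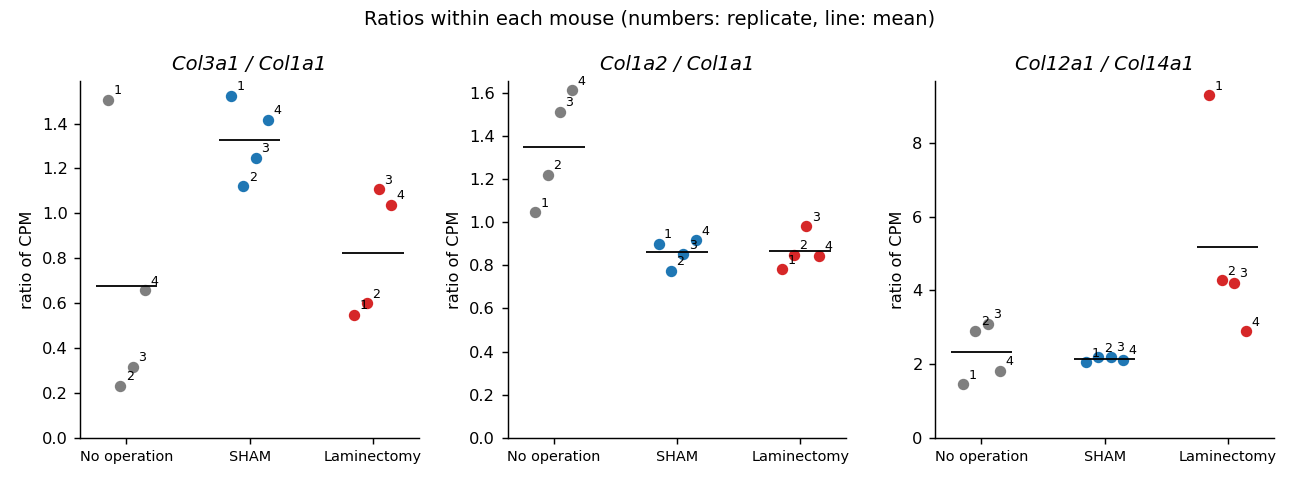
Ratios of CPM (y axis) of *Col3a1* to *Col1a1* (left), *Col1a2* to *Col1a1* (middle) and *Col12a1* to *Col14a1* (right) in each mouse, numbered by replicate, with the group mean as a line. SHAM and Laminectomy mice do not overlap on the left (1.12 to 1.52 against 0.549 to 1.11), and the operated groups lie below the unoperated one in the middle.

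The level of *Col1a1* and *Col3a1* was also set against 9 fibroblast genes (*Pdgfra*, *Pdgfrb*, *Thy1*, *Dcn*, *Lum*, *Dpt*, *Pi16*, *Cd34* and *Gsn*). *Col1a1* relative to their mean log2 CPM was higher by 2.13 in SHAM and by 2.95 in Laminectomy mice, relative to unoperated ones, and *Col3a1* by 3.48 and 3.54. Relative to the same 9 genes, *Col1a1* was 0.82 higher in Laminectomy than in SHAM mice on the log2 scale. Each of these 5 differences had no overlap and an exact permutation p of 0.0286 (adjusted 0.0343 over 6 tests). For *Col3a1* the difference between Laminectomy and SHAM mice was 0.07 (exact permutation p = 0.857). The reference itself moved: the mean log2 CPM of the 9 genes was 8.27 to 8.81 in No operation, 8.14 to 8.65 in SHAM and 7.04 to 8.12 in Laminectomy mice, where mouse 1 was lowest and the other 3 lay at 7.89 to 8.12. Without that mouse the 0.82 was 0.49, and without No operation mouse 1 the values of *Col3a1* were 4.10 and 4.17. With 3 against 4 mice the exact permutation p, the smaller tail doubled, cannot go below 0.0571. Against No operation mice 4 of them (*Dcn*, *Gsn*, *Cd34* and *Pi16*) fell and 3 (*Pdgfrb*, *Thy1* and *Lum*) rose in Laminectomy mice, while 2 fell and 4 rose in SHAM mice. Between Laminectomy and SHAM mice 7 of the 9 were lower at an unadjusted p below 0.05, with none called. The log2 fold change of *Col1a1* itself between Laminectomy and SHAM mice was 0.09.

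Other genes of both collagen families were measured for comparison. Of 10 further chains in the table, SHAM mice had 2 that rose and 3 that fell, and Laminectomy mice had 5 that rose and 1 that fell. Of all genes 25.7% were called higher and 25.1% lower in SHAM mice, and 24.2% higher and 24.4% lower in Laminectomy mice. *Col24a1* (log2 fold changes 1.41 and 1.02) and *Col27a1* (1.53 and 2.04), fibrillar chains of developing cartilage and bone, rose in both groups. *Col20a1* fell in both (-0.73 and -0.76). *Col22a1*, a chain of the muscle-tendon junction, fell in SHAM mice (-3.29) and was at -0.97 in Laminectomy mice (adjusted p = 0.206, edgeR). *Col11a2* fell in SHAM mice (-2.49) and was at 0.35 in Laminectomy mice (adjusted p = 0.719, edgeR). Without No operation mouse 2 the values of *Col11a2* were -1.76 in SHAM mice (adjusted p = 0.0712, edgeR) and 1.08 in Laminectomy mice (adjusted p = 0.263, edgeR). Without SHAM mouse 4 the SHAM value of *Col22a1* was -4.10. The *Col24a1* call in Laminectomy mice was lost without No operation mouse 1, 3 or 4 or Laminectomy mouse 2 or 4 (adjusted p 0.0524 to 0.0616).

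The type IX chains, which coat cartilage fibrils, and *Col19a1* were at a few CPM in the No operation group. *Col9a2* rose in Laminectomy mice to 24.7 ± 14.1 CPM (SD, n = 4) from 5.35 ± 6.28 CPM, *Col9a3* to 21.0 ± 12.6 from 3.02 ± 2.72 CPM and *Col19a1* to 10.5 ± 1.22 from 2.26 ± 0.391 CPM. *Col9a1* (27.8 ± 21.0 against 4.14 ± 6.24 CPM, adjusted p = 0.0548, edgeR) and *Col2a1*, the main cartilage fibril chain (270 ± 289 against 60.2 ± 88.0 CPM, adjusted p = 0.222, edgeR), did not pass. Without No operation mouse 2 the log2 fold changes of *Col9a1*, *Col9a2* and *Col9a3* in Laminectomy mice were 4.67 (adjusted p = 0.00551), 3.41 and 3.61. That of *Col2a1*, 2.17 with all mice, was 3.95 without No operation mouse 2 (adjusted p = 0.0581, edgeR). Without Laminectomy mouse 2 it was 1.09 (adjusted p = 0.554, edgeR). The call of *Col9a2* was lost without No operation mouse 3 or 4 or Laminectomy mouse 2 (adjusted p 0.0664 to 0.0823). *Col19a1* passed in SHAM mice as well when SHAM mouse 1 was left out (1.51). None of the 10 was called between Laminectomy and SHAM mice. At an unadjusted p below 0.05, 7 of the 10 were higher in Laminectomy mice, as were 6.95% of all genes, with log2 fold changes from 0.51 (*Col27a1*) to 3.88 (*Col2a1*). That of *Col2a1* was 5.50 without SHAM mouse 3 and 2.81 without Laminectomy mouse 2. *Col2a1* is also among the cartilage genes above.

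A list of 51 genes that make, cross-link, bind or degrade collagen fibres was counted in the same way. It shares *Dcn* and *Lum* with the fibroblast genes, *Postn* with the activated fibroblast genes, and *Fmod* and *Kera* with the tendon genes. Of 50 tested with edgeR, 33 rose, 8 fell and 9 did not pass in SHAM mice, and 33 rose, 7 fell and 10 did not pass in Laminectomy mice. Their median log2 fold change was 1.09 in each, against the medians near 0 of all genes, of which 25.7% and 24.2% were called higher and 25.1% and 24.4% lower. The largest rises in Laminectomy mice were those of *Postn* (2.84, adjusted p = 0.00798), a matricellular protein that promotes cross-linking, *Mmp14* (2.80, adjusted p = 0.000460), a membrane collagenase, and *Mmp9* (2.65, adjusted p = 0.0329), a gelatinase. *Postn* and *Mmp14* also rose in SHAM mice (2.56 and 2.74), where *Mmp9* was at 1.33 (adjusted p = 0.229). These values lean on single mice: without No operation mouse 1 those of *Postn* were 4.54 in Laminectomy and 4.26 in SHAM mice and those of *Mmp14* 3.52 and 3.46. Without No operation mouse 2 those of *Mmp9* were 4.13 and 2.81 (adjusted p = 0.0151 for SHAM), and its call in Laminectomy mice was lost without No operation mouse 1 or 3 or Laminectomy mouse 1 (adjusted p 0.0616 to 0.0791). The largest falls were those of *Tnxb* (-3.14, adjusted p = 0.00243), which binds collagen fibrils in normal connective tissue, *Kera* (-3.11, adjusted p = 0.0162), a tendon and cornea proteoglycan, and *Pcolce2* (-2.61, adjusted p = 0.000232), an enhancer of procollagen processing. In SHAM mice *Kera* (-3.70) and *Pcolce2* (-2.63) fell, and *Tnxb* was at -1.48 (adjusted p = 0.0678). Without No operation mouse 3 *Kera* was at -2.39 in Laminectomy mice (adjusted p = 0.0523) and at -2.98 in SHAM mice, where it was at -4.49 without SHAM mouse 3. None of the 50 was called between Laminectomy and SHAM mice.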

How the data were processed

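Bulk RNA from paraspinal tissue of 12 mice (4 No operation, 4 SHAM, 4 Laminectomy) was analysed, with groups taken from the sample labels. The methods state 3 mice per group without naming them, so all 4 were used. The authors made stranded poly(A) libraries, aligned reads with STAR to GRCm38, counted genes with featureCounts (defaults) and used DESeq2 (submitters' notes: STAR 2.6.1b, featureCounts 2.0.1, DESeq2 1.30.1). The deposited values are estimated counts, 10.2% of them not whole, and were rounded. The design had assumed whole counts. The step that made the fractions is not given in the sources used here. The featureCounts defaults ignore strand, and if they produced these values, reads from overlapping genes on opposite strands cannot be told apart.

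Genes were filtered with filterByExpr (4231 of 18996 removed), scaled by TMM and fitted over all 12 mice by edgeR 4.0.16 (glmQLFit, glmQLFTest; R 4.3.3). The SE is the absolute log2 fold change divided by the square root of F. The common dispersion was 0.0799. Ratios used log2 CPM with a prior count of 2 and two-sided exact permutation tests. Gene lengths came from GENCODE annotation of GRCm38. Depth (16802988 to 18077863 counts) covers counting error only, and nothing in the labels says what the mice of a group share. Alternatives were DESeq2 1.42.0, its size factors, library totals, no filter, fitting only the groups compared, a fold threshold of 1, a prior count of 0.5, a replicate block and leaving out each mouse. The prior count for ratios other than *Col3a1* to *Col1a1*, the coding length, and leaving out mice for genes other than the 10 collagens and for levels relative to fibroblast genes were added after the data were seen.

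The collagens and lists were chosen with earlier results of these data known. Named were the 10 collagens, their other family members, and from the list of fibre processing genes the 3 largest rises and falls called in Laminectomy against No operation, and the 5 genes most correlated with each of 4 collagens.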

Additional observations from a re-analysis of the deposited data

Results flagged for a closer look

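Groups of 4 mice were searched for a mouse whose gap to its nearest neighbour exceeded Dixon's 95% critical value. Of 57 groups tested 5 held such a mouse, where chance gives about 1 in 20. *Col3a1* was at 9680 CPM in No operation mouse 1 (the other 3 at 1057 to 2180 CPM), and *Col5a1* was at 1198 CPM in the same mouse (others 232 to 394 CPM). *Col1a1* was at 15574 CPM in SHAM mouse 4 (others 20632 to 21166 CPM). The ratio of *Col12a1* to *Col1a1* was 0.106 in Laminectomy mouse 3 (others 0.0658 to 0.0686). The ratio of *Col14a1* to *Col1a1* was 0.0203 in SHAM mouse 2 (others 0.0268 to 0.0280).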

How the results depend on the processing

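Collagens called numbered 8, 9 and 0 for SHAM against No operation, Laminectomy against No operation and Laminectomy against SHAM. Leaving out each mouse gave 7 to 8, 9 and 0. DESeq2 called 1 collagen (*Col11a1*) between Laminectomy and SHAM and 601 genes in all, where edgeR called 0, and it gave no adjusted p for *Col3a1* in any comparison. DESeq2 and library totals also called *Col14a1* in SHAM mice (log2 fold changes 0.77 and 1.03). *Col12a1* in SHAM mice lost its call as given above.

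The log2 fold change of *Col11a1* in SHAM mice turned positive with library totals (0.092), with a replicate block (0.016) and without No operation mouse 2 (0.26), No operation mouse 3 (0.03) or SHAM mouse 1 (0.086), with a range over single mice left out of -0.39 to 0.26. Between Laminectomy and SHAM, *Col5a2* turned negative without SHAM mouse 2 (-0.038) or Laminectomy mouse 1 (-0.0014), *Col1a1* without SHAM mouse 4 (-0.00066) or Laminectomy mouse 2 (-0.0056) and *Col1a2* without Laminectomy mouse 2 (-0.0046). Their highest values over single mice left out were 0.15, 0.19 and 0.19. None of these was called in either direction, and the cause was not tested.

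The log2 ratio of *Col3a1* to *Col1a1* ranged over single mice left out from 0.96 to 1.86, from 0.21 to 1.11 and from -0.92 to -0.58 in the 3 comparisons, and 3 against 4 mice cannot give an exact permutation p under 0.0571. Same-numbered deviations correlated at -0.23 to 0.20 for SHAM against No operation and at -0.13 to 0.33 for Laminectomy against SHAM. For Laminectomy against No operation all were positive (0.069 to 0.35). In the 3 comparisons 3, 5 and 2 of 8 mice were closest to their own number. Replicate numbers thus gave no pairing common to all groups, and one of Laminectomy with No operation mice was not tested. The replicate block called 8, 9 and 0 collagens, and its exact sign-flip test of the *Col3a1* to *Col1a1* ratio gave p of 0.125, 0.5 and 0.125, where 4 pairs cannot go below 0.125.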

Other observations

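Genes whose log2 CPM followed single collagens most closely over the 12 mice were looked up among 10627 genes with a mean of at least 10 CPM. Operated and unoperated mice form separate clusters for most of these genes, so the values are descriptions of the 12 libraries and carry no test. For *Col1a1* they were *E2f1*, *Glipr1*, *Sparc*, *Melk* and *Pimreg* (Pearson r 0.975 to 0.978). Over the 8 operated mice alone r was 0.746 for *E2f1*, 0.118 for *Glipr1*, 0.586 for *Sparc*, 0.352 for *Melk* and 0.187 for *Pimreg*. For *Col3a1* they were *Nxpe5*, *Hpgds*, *Lrrc15*, *Mmp2* and *Loxl1* (r 0.983 to 0.992), with r from 0.806 to 0.861 over the 8 operated mice.

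For *Col12a1* they were *Eif5a2*, *Gulp1*, *Olfml3*, *Hnrnpr* and *Tbc1d8b* (r 0.939 to 0.956), with r from 0.709 to 0.934 over the 8 operated mice. For *Col14a1* they were *Galnt17*, *Serpinb6a*, *Mfap5*, *Pcsk5* and *Bmper* (r 0.907 to 0.959), with r from 0.876 to 0.948 over the 8 operated mice. Among the collagens, r of *Col3a1* with *Col1a1* was 0.867 over 12 mice and -0.259 over the 8 operated mice, and r of *Col1a2* with *Col1a1* was 0.988 and 0.894. *Col3a1* and *Col11a1* had an r of 0.147 over 12 mice and of -0.946 over the 8 operated mice, 2 groups whose levels do not overlap for either gene.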
